A study of Mus musculus with 10 samples.

Results

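Transcription factors that build and maintain the heart muscle were followed in mouse ventricle: the GATA zinc finger factors Gata4 and Gata6, the MADS-box factors Mef2a, Mef2c, Mef2d and Srf, the homeobox factor Nkx2-5, the T-box factor Tbx5, the bHLH factor Hand2, and Myocd, the coactivator of SRF. All probe sets annotated to 1 of these 10 symbols and to no other gene were taken, which gave 24 of the 22626 probe sets tested and 10 of the 12393 genes they stood for. Every member gene had at least 1 probe set, Mef2a and Mef2c had 5 each, Nkx2-5 and Hand2 had 1 each, and the remaining 6 genes had 2 each. No filter on low values was applied, so all 24 probe sets were tested. The intensity of no member reached 1000 on any array, so that the way large values were written in the deposited table did not touch them.

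The study set mice of the lines alpha-TM175 and alpha-TM180, called TM175 and TM180 below, beside nontransgenic controls (NTG), and its title speaks of an early phase of hypertrophy in a mild and a severe form. The names refer to variants of alpha-tropomyosin, the thin-filament protein of the sarcomere that carries the calcium signal of troponin to the contractile machinery. Ventricular RNA was hybridised to 10 arrays: 3 of TM175, 4 of TM180 and 3 of NTG. In each genotype 1 array held an extract pooled from 20 hearts (TM175 array 3, TM180 array 4 and NTG array 3), and the other 7 arrays held individual extracts. The promoter of the transgenes, the strain, the sex and the age of the mice are not given in the sources used here. Nothing in the labels says that the pooled hearts differed from those measured alone. Individual extracts are called separate by the labels, but no animal is named, so p-values measure the spread between these arrays, which may be partly technical.

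These factors act as a network. GATA4, NKX2-5, TBX5 and HAND2 bind the control regions of contractile and natriuretic peptide genes side by side and raise each other's activity, and the loss of any of them disturbs the development of the heart. MEF2 proteins bind A/T-rich sites in muscle genes and are held inactive by class II histone deacetylases until calcium signals release them. SRF binds CArG boxes in actin and immediate early genes, and myocardin joins it there to drive smooth and cardiac muscle genes. In the adult ventricle these proteins are also regulated by phosphorylation and location, which an array of transcript levels does not measure.

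Start regions were read from RefSeq (GRCm38.p6), which gave 8 promoters of 6 members (Mef2a, Mef2c, Mef2d, Hand2, Nkx2-5 and Srf). The 250 bases before an annotated start are printed for Srf, because its own factor's binding motif lies there, and for Mef2a and Mef2c, the genes with the most probe sets and with differing probe sets in the results. The regions are chr17:46556163-46556412 (minus strand) for Srf and chr7:67372859-67373108 (minus strand) for Mef2a. Both lie within the gene spans given below, so these starts are not the outermost of the genes. The Mef2c starts lie at chr13:83503784-83504033, chr13:83523406-83523655 and chr13:83573357-83573606, all on the plus strand. Each is printed 5′ to 3′ on the strand of the gene, and capitals mark a CArG box.
Srf: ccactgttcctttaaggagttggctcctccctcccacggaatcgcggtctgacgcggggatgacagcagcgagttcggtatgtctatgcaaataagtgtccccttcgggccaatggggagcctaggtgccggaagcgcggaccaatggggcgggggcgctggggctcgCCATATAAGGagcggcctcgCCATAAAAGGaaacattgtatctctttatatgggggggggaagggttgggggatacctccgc
Mef2a: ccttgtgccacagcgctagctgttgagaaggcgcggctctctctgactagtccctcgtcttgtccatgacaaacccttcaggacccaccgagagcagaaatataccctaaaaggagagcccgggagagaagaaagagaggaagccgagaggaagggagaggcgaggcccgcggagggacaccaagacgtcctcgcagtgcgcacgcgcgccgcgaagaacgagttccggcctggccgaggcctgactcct
Mef2c, upstream start: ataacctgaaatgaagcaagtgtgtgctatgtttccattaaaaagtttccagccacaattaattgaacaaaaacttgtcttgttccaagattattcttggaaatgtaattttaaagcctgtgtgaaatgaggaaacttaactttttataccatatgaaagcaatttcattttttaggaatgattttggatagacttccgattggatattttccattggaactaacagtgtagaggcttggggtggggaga
Mef2c, middle start: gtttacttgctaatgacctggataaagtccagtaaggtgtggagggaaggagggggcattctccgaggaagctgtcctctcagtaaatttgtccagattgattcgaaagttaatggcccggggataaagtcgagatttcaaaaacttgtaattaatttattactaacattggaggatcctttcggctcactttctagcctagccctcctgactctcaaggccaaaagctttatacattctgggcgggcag
Mef2c, downstream start: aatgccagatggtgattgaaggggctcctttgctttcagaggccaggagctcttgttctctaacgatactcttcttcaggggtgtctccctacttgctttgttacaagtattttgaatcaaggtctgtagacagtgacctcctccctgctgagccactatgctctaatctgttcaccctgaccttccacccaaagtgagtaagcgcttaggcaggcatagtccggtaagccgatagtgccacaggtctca

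The Srf region held 2 CArG boxes, CCATATAAGG from base -82 to -73 and CCATAAAAGG from base -62 to -53 counted back from the start. Searched on both strands, the CArG box occurred in 1.47% of 32851 RefSeq promoters of the same length. The MEF2 site was found in 0.51% of them and in none of the 8 members' windows. The GATA site AGATAA was found in 9.99% and, among the 8, in that of Hand2 alone, where TTATCT (its reverse complement) lay at bases -172 to -167. These matches are letters in a window and say nothing about binding.

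Over all arrays the median intensity lay between 66.5 and 70.7, and the log2 intensities of array pairs had a Pearson r of 0.964 to 0.995 over the probe sets, a description of the arrays since genes are not independent. Pooled extracts stood apart from individual ones on the leading principal component, which held 47.4% of the variance (scores of 30.11 to 39.78 for pools and -31.58 to 2.65 for individual extracts). Extract type was therefore a term of the model. The alpha-tropomyosin gene Tpm1 read 16520, 16170 and 15430 on the TM175 arrays and 16830, 16460, 17350 and 15590 on the TM180 arrays, against 12400, 13210 and 11240 on the NTG arrays. It did not overlap between transgenic and control arrays, with a log2 difference from NTG of 0.39 in TM175 (limma, adjusted p = 0.0513) and 0.42 in TM180 (limma, adjusted p = 0.0169). Xist, the RNA that coats the silenced X, read 988 on TM175 array 1 and 99.5 to 136 on the other individual arrays, and the Y-linked Eif2s3y read 7.23 on TM175 array 1 and 44.7 to 60.8 on the other individual arrays. For Xist the pooled arrays read 414, 394 and 149 in the order TM175, TM180 and NTG, and for Eif2s3y 38.3, 35.3 and 46.7 in the same order. Myl2, the ventricular myosin light chain, read 9757 to 10760 on all 10 arrays.

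The comparison of each line with NTG asked whether the factors that control the heart's gene programme differed in their transcripts at this stage. In TM175 ventricles 1 member probe set, of Mef2a, was called lower (0.601-fold) and none higher. In TM180 ventricles no member was called in either direction, and none was called between TM180 and TM175. The model (limma with genotype and extract type, p-values adjusted by Benjamini-Hochberg over 22626 probe sets, called under 0.05) called 4.17% of the member probe sets in TM175, where it called 0.862% of all probe sets, 0.128% as higher and 0.734% as lower. In TM180 it called 2.01% of all probe sets (1.47% higher and 0.539% lower) and 0 of 24 members, and between the lines 0.0265% (0.0221% higher and 0.00442% lower) and 0 of 24. At an unadjusted p under 0.05 the members counted 9 in TM175, where 22.1% of all probe sets stood at this level, 6 in TM180, against 14.3% of all, and 4 between the lines, against 25.4% of all. Fitted to genotype alone, limma called 0 of 24 members in each comparison, where it called 0.00884% of all probe sets in TM175, 0.504% in TM180 and 0 between the lines. At an unadjusted p under 0.05 this model had 4 members in TM175 (13.05% of all probe sets), 1 in TM180 (9.34% of all) and 2 between the lines (13.26% of all). On individual extracts alone it also called 0 of 24 in each, where it called 0.0133% of all in TM175, 0.194% in TM180 and 0 between the lines. There the members at an unadjusted p under 0.05 were 4 in TM175 (14.72% of all), 6 in TM180 (9.06% of all) and 3 between the lines (20.16% of all).

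The median log2 difference from NTG was -0.18 over the members and 0.04 over all probe sets in TM175. In TM180 it was -0.11 over the members and -0.01 over all. The difference was below 0 for 17 of 24 members in TM175 (42.1% of all probe sets) and for 18 of 24 in TM180 (52.6% of all). Both lines were set against the same 3 NTG arrays, and 16 probe sets were below 0 in both. Between TM180 and TM175 the median was 0.07 over the members and -0.03 over all, with 9 of 24 members below 0 (54.9% of all). In TM175 the arrays of 7 members did not overlap with those of NTG, where 16.5% of all probe sets did not overlap. In TM180 this held for 0 members (10.2% of all), and between the lines for 0 (13.6% of all).

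**Figure D1:**
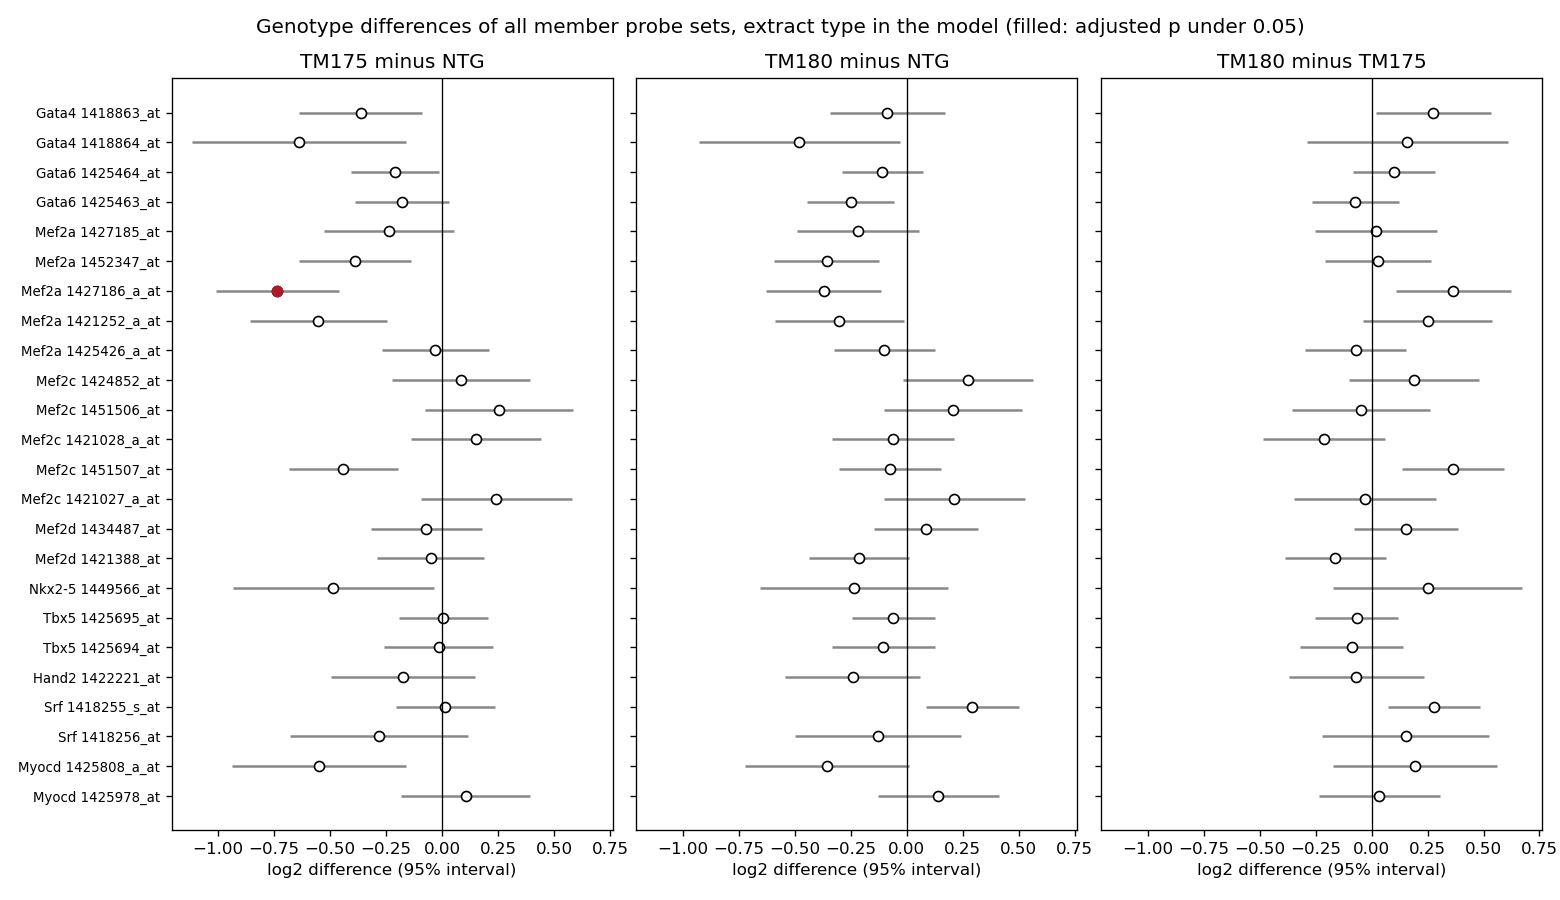
Log2 difference of each member probe set in TM175 minus NTG, TM180 minus NTG and TM180 minus TM175 (panels left to right), with limma's 95% intervals as bars, a vertical line at no difference and a filled point where the adjusted p is under 0.05. Of the 24 probe sets 17 lie below 0 in TM175 and 18 in TM180, and the filled point is Mef2a 1427186_a_at in TM175 at -0.74.

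Gata4 (chromosome 14, 63198914 to 63271712), which activates Nppa and many contractile genes and is needed for the hypertrophic response of cardiomyocytes, had 2 probe sets. Its brighter one, 1418863_at, read 328, 331 and 285 on the TM175 arrays and 406, 436, 325 and 374 on the TM180 arrays, against 472, 368 and 381 on the NTG arrays. All 3 TM175 arrays were below every NTG array, while TM180 overlapped with NTG. The log2 difference was -0.36 ± 0.13 SE in TM175 (limma, adjusted p = 0.138) and -0.09 ± 0.12 SE in TM180 (adjusted p = 0.82), so that neither passed. The dimmer Gata4 probe set, 1418864_at, read 55.2, 65.4 and 39.1 in TM175 and 62.5, 70.7, 42.1 and 62.1 in TM180, against 83.2, 66.3 and 97.0 in NTG. The TM175 arrays again lay below the NTG arrays, by a narrow gap, and the TM180 arrays overlapped with them. Its log2 difference was -0.64 in TM175 (limma, adjusted p = 0.136) and -0.48 in TM180 (adjusted p = 0.309). Gata6, a relative of Gata4 with overlapping roles in the heart, read 156, 155 and 264 in TM175 and 178, 169, 156.5 and 280 in TM180, against 193, 174.5 and 292 in NTG with probe set 1425464_at. On each genotype's arrays the pooled one was high, and the genotypes overlapped. Its log2 difference was -0.21 in TM175 (limma, adjusted p = 0.201) and -0.11 in TM180 (adjusted p = 0.641), and with 1425463_at -0.18 (adjusted p = 0.29) and -0.25 (adjusted p = 0.209).

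Among the MEF2 genes, Mef2a (chromosome 7, 67231163 to 67376456), a MEF2 gene active in adult heart muscle and needed there for mitochondrial upkeep in mice, held the call. Its probe set 1427186_a_at read 70.8, 51.6 and 94.1 on the TM175 arrays and 88.1, 83.5, 78.4 and 103.9 on the TM180 arrays, against 112.8, 102.1 and 137.8 on the NTG arrays. Every TM175 array lay below every NTG array, and TM180 array 4, the pool, reached above NTG array 2. The difference in TM175 was 0.601-fold (95% interval 0.497 to 0.726; log2 -0.74 ± 0.13 SE, limma adjusted p = 0.033). In TM180 it was 0.773-fold (log2 -0.37 ± 0.12 SE, adjusted p = 0.148), and between TM180 and TM175 the log2 difference was 0.36 ± 0.12 SE (adjusted p = 0.105). Within the individual extracts the TM175 log2 difference was -0.83 (limma, adjusted p = 0.293), and between the pools it was -0.55, with 1 array each and no test. The call was lost with genotype alone (limma, adjusted p = 0.206) and without TM175 array 1, the array with the high Xist reading (log2 -0.82, adjusted p = 0.0676). It was also lost without TM175 array 3 (adjusted p = 0.135), TM180 array 4 (0.0676), NTG array 1 (0.124) or NTG array 3 (0.181), with log2 differences of -0.84 to -0.57 over all 10 fits that left out 1 array.

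The other Mef2a probe sets did not pass in either line, although the log2 difference of each was below 0 in both. Probe set 1421252_a_at read 44.3, 47.5 and 52.9 in TM175 and 55.1, 45.8, 42.5 and 87.8 in TM180, against 62.2, 60.7 and 93.0 in NTG. The TM175 arrays lay below all NTG arrays, and the TM180 arrays did not separate. Its log2 difference in TM175 was -0.55 (limma, adjusted p = 0.0734). Probe set 1452347_at read 420, 408 and 756 in TM175 and 488, 413, 402 and 731 in TM180, against 626, 478 and 971 in NTG, so that the pool was the highest array of each genotype. Here the log2 difference was -0.39 in TM175 (limma, adjusted p = 0.104) and -0.36 in TM180 (adjusted p = 0.129), and in TM175 it passed when NTG array 2 was left out (-0.50, adjusted p = 0.0375). The brightest Mef2a probe set, 1427185_at, differed by -0.24 in TM175 (limma, adjusted p = 0.311) and -0.22 in TM180 (adjusted p = 0.478), and the dimmest, 1425426_a_at, by -0.03 and -0.10. Across the 10 arrays the log2 intensities most like those of Mef2a 1427186_a_at belonged to Tfpi (Pearson r = 0.962), Hsd17b4 (0.956) and Serinc1 (0.955), a description over arrays that share their genotypes and extract types.

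Mef2c (chromosome 13, 83504017 to 83667079), which is required for the formation of the right ventricle in the embryo, had probe sets that ran in both directions. Its brightest, 1424852_at, read 460, 376 and 457 in TM175 and 481, 473, 625 and 420 in TM180, against 446, 437 and 340 in NTG. The genotypes overlapped, and the log2 difference was 0.08 in TM175 (limma, adjusted p = 0.753) and 0.27 in TM180 (adjusted p = 0.388). Probe set 1451507_at read 49.4, 49.2 and 56.4 in TM175 and 63.6, 70.3, 53.5 and 76.9 in TM180, against 72.2, 62.2 and 76.3 in NTG. All TM175 arrays were below all NTG arrays, while TM180 arrays spanned the NTG range. The log2 difference was -0.44 ± 0.11 SE in TM175 (limma, adjusted p = 0.0726), and between TM180 and TM175 it was 0.36 ± 0.10 SE (adjusted p = 0.0884). It passed in TM175 without NTG array 2 (log2 -0.49, limma adjusted p = 0.0477). The remaining Mef2c probe sets had log2 differences of 0.15 to 0.25 in TM175 and -0.06 to 0.21 in TM180, none called.

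Mef2d (chromosome 3, 88141941 to 88172091), which mediates stress-dependent remodelling of the heart in mice, had no call and no separation between genotypes. Probe set 1434487_at read 615, 496 and 640 in TM175 and 717, 580, 601 and 681 in TM180, against 629, 592 and 608 in NTG. The arrays overlapped, with log2 differences of -0.07 in TM175 (limma, adjusted p = 0.74) and 0.08 in TM180 (adjusted p = 0.802). Probe set 1421388_at differed by -0.05 in TM175 (limma, adjusted p = 0.812) and -0.21 in TM180 (adjusted p = 0.382).

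Nkx2-5 (chromosome 17, 26838664 to 26844988), the homeobox factor that marks heart progenitors and sustains conduction and contractile genes, read 400, 494 and 484 on the TM175 arrays and 644, 596, 361 and 609 on the TM180 arrays, against 770, 503 and 678 on the NTG arrays. The TM175 arrays lay below every NTG array, by a small gap, and TM180 array 3 lay lowest of all 10. The log2 difference was -0.49 ± 0.21 SE in TM175 (limma, adjusted p = 0.199; 0.714-fold, 95% interval 0.523 to 0.975) and -0.24 ± 0.19 SE in TM180 (adjusted p = 0.665). Tbx5 (chromosome 5, 119796514 to 119885220), whose human gene is mutated in Holt-Oram syndrome, read 75.2, 86.5 and 107.4 in TM175 and 73.9, 79.2, 75.4 and 106.5 in TM180, against 82.4, 81.7 and 102.6 in NTG with probe set 1425695_at. The individual arrays of all genotypes lay close together, and the pool was the highest array of each. Its log2 difference from NTG was 0.01 in TM175 (limma, adjusted p = 0.976; 0.876 to 1.15-fold, 95% interval) and -0.06 in TM180 (adjusted p = 0.831; 0.844 to 1.09-fold). The second Tbx5 probe set, 1425694_at, had intervals of 0.836 to 1.17-fold in TM175 and 0.794 to 1.09-fold in TM180. Hand2 (chromosome 8, 57320983 to 57324517), needed for the right ventricle of the embryo, read 75.7, 93.7 and 71.7 in TM175 and 95.5, 69.1, 73.4 and 70.7 in TM180, against 95.8, 78.2 and 97.6 in NTG. The groups overlapped, and the log2 difference was -0.18 in TM175 (limma, adjusted p = 0.5) and -0.24 in TM180 (adjusted p = 0.475).

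Srf (chromosome 17, 46546838 to 46558267), the factor of the CArG boxes printed above, had probe sets that differed in sign in TM180. Probe set 1418255_s_at read 346, 389 and 255 in TM175 and 403, 423, 445 and 344 in TM180, against 350, 323 and 295 in NTG. The individual TM180 arrays lay above every NTG array, and the TM180 pool lay between the NTG arrays. The log2 difference was 0.29 ± 0.09 SE in TM180 (limma, adjusted p = 0.154) and 0.01 ± 0.10 SE in TM175 (adjusted p = 0.949). Probe set 1418256_at had a log2 difference of -0.28 in TM175 (limma, adjusted p = 0.38) and -0.13 in TM180 (adjusted p = 0.813). Myocd (chromosome 11, 65173608 to 65269989) read 69.8, 81.9 and 70.0 in TM175 and 72.2, 67.9, 73.9 and 122.8 in TM180, against 89.4, 85.0 and 165.5 in NTG with probe set 1425808_a_at. The TM175 arrays lay below all NTG arrays, and among the pools NTG was the highest and TM175 the lowest. The log2 difference was -0.55 ± 0.18 SE in TM175 (limma, adjusted p = 0.123) and -0.36 ± 0.17 SE in TM180 (adjusted p = 0.363). The other Myocd probe set, 1425978_at, differed by 0.11 in TM175 (limma, adjusted p = 0.665) and 0.14 in TM180 (adjusted p = 0.695).

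**Figure D2:**
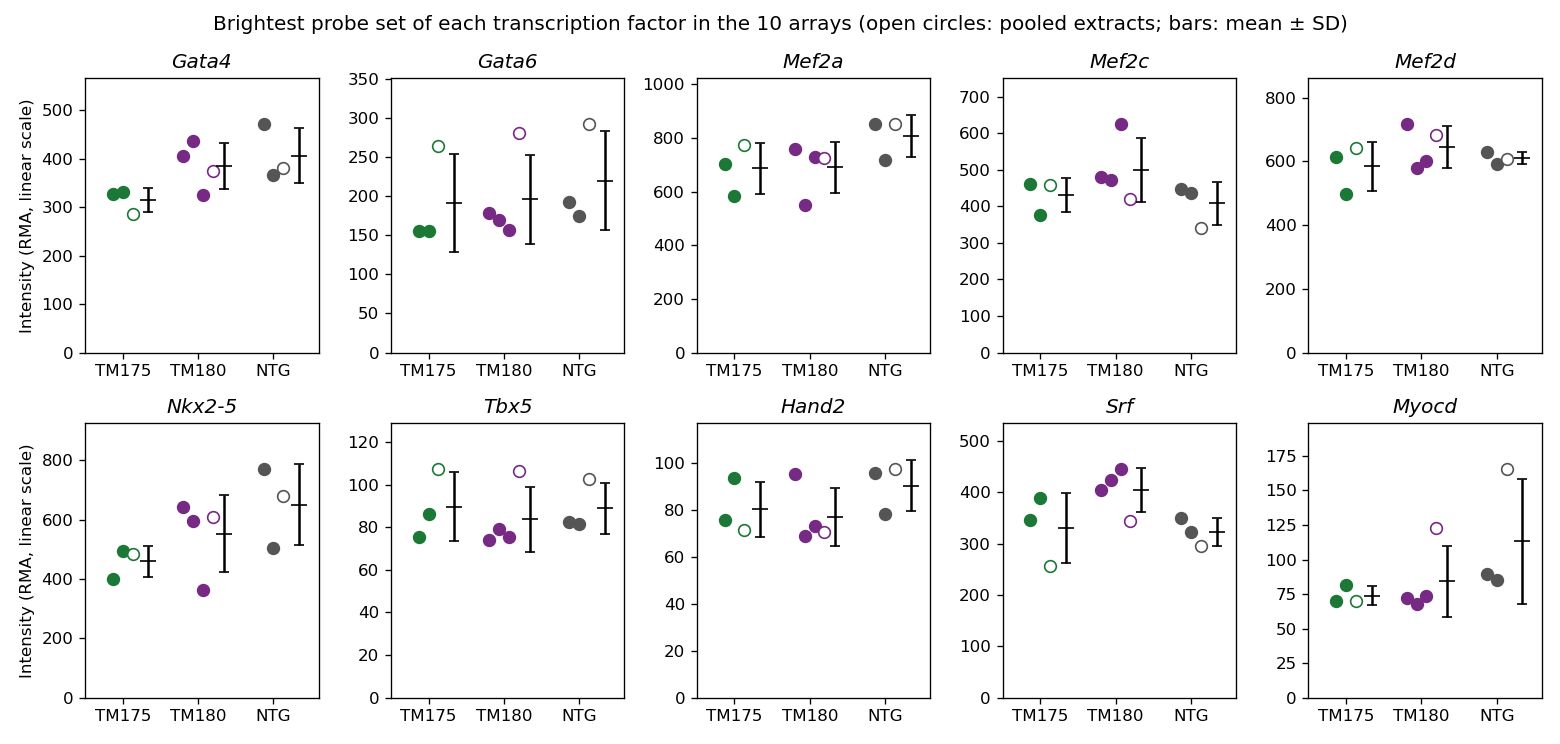
Intensity of the leading (brightest) probe set of each member on every array, on a linear scale from 0, with TM175, TM180 and NTG from left to right in each panel, pooled extracts as open circles, individual extracts as filled circles, and mean ± SD of each genotype as bars (n = 3, 4 and 3). The Gata4, Nkx2-5 and Myocd arrays of TM175 lie below those of NTG, where 16.5% of all probe sets did not overlap. The pooled arrays of Gata6 and Tbx5 lie above the individual arrays of every genotype, where 15.0% of all probe sets did not overlap between extract types.

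In ventricular tissue, fewer cells of a type and less transcript per cell cannot be told apart. Markers of cardiac fibroblasts, which also express Gata4, Gata6 and Tbx5, differed with genotype: 1 of 10 was called higher in TM175 (Postn) and 6 of 10 in TM180, none lower, and their summed intensity ranged from 7259 to 10990 in TM175 and from 9062 to 13610 in TM180, against 5039 to 7412 in NTG. Their part in the members' values was not tested. Of 10 ventricular cardiomyocyte markers 0 were called in either line by limma (1 in TM175 and 3 in TM180 at an unadjusted p under 0.05). The summed intensity of the 7 with a settled level was 35050 to 36650 in TM175 and 34240 to 36320 in TM180, against 36330 to 37960 in NTG. These 7 include a Myh6 probe set, 1417729_at, whose reading is uncertain.

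The comparison of pooled with individual extracts gave wider differences among these factors than the genotypes did. Myocd, Mef2c, Mef2a, Gata6 and Tbx5 had probe sets that rose in the pools of 20 hearts, by up to 7.46-fold, and 1 Srf probe set fell, while no probe set of Gata4, Mef2d, Nkx2-5 or Hand2 passed. With genotype in the model limma called 14 of 24 member probe sets (58.3%), 13 higher and 1 lower, and 22.2% of all probe sets, 10.0% higher and 12.2% lower. The 14 belonged to 6 genes. The median log2 difference was 0.40 over the members and -0.05 over all probe sets, and 6 of 24 members were below 0 (58.1% of all). At an unadjusted p under 0.05 it had 15 of 24 (37.6% of all). The arrays of 10 members did not overlap between pools and individual extracts, where 15.0% of all probe sets did not. Of the 13 called higher, 12 were higher in the pool within each of the 3 genotypes.

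**Figure D3:**
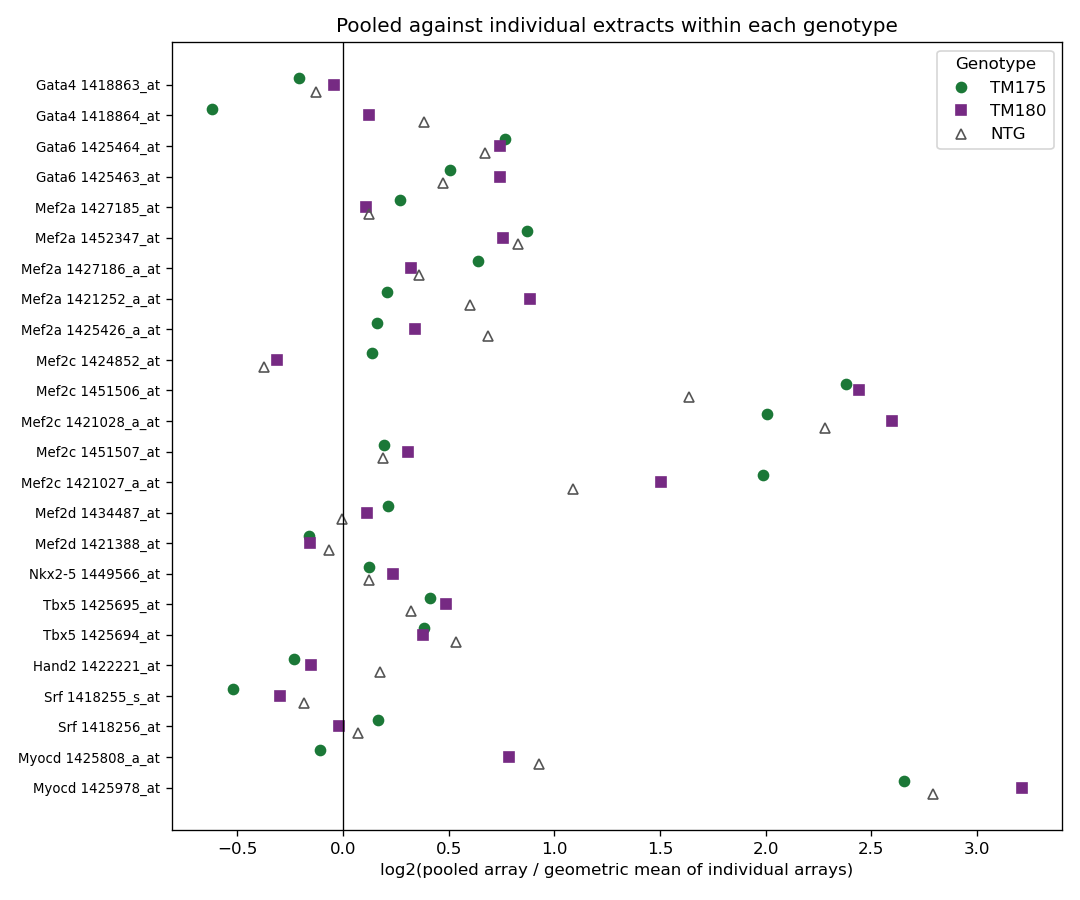
Log2 ratio of the pooled array to the geometric mean of the individual arrays for each member probe set within TM175, TM180 and NTG, each point resting on 1 pool. The Myocd probe set 1425978_at and 3 Mef2c probe sets lie above 1 in all 3 genotypes. The Srf probe set 1418255_s_at, called lower, lies below 0 in all 3, as do Gata4 1418863_at and Mef2d 1421388_at, which were not called.

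Myocd probe set 1425978_at read 204.9 in the TM175 pool, 276.5 in the TM180 pool and 203.1 in the NTG pool. The individual extracts read 26.1 at the lowest, 32.4 at the median and 33.0 at the highest. The pools of all genotypes lay far above every individual array, with no overlap. The ratio was 7.46-fold (95% interval 6.29 to 8.84; limma adjusted p = 8.117e-09), and 19 of the 22626 probe sets had a larger rise. Within genotypes it was 6.29-fold in TM175, 9.25-fold in TM180 and 6.93-fold in NTG. The other Myocd probe set, 1425808_a_at, rose 1.46-fold (limma, adjusted p = 0.0255), but was 0.926-fold within TM175, 1.72-fold within TM180 and 1.90-fold within NTG. Without TM180 array 4, NTG array 2 or NTG array 3 the call on 1425808_a_at was lost (limma, adjusted p = 0.184, 0.0541 and 0.172). A test of whether the pooling difference varied with genotype passed for 0 of 24 members (limma, lowest adjusted p = 0.9998) and for 0 of all 22626 probe sets. Each genotype has 1 pool, so the spread in this test came from the individual arrays alone. Its lowest unadjusted p was 0.001423, for Myocd 1425808_a_at, and 4 members were under 0.05, where 3.60% of all probe sets were.

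Mef2c split by probe set. Probe set 1421028_a_at read 195.7 in the TM175 pool, 225.3 in the TM180 pool and 200.0 in the NTG pool, and the individual extracts read from 34.9 to 53.7 with a median of 41.8. Probe set 1451506_at read 316.3, 319.9 and 188.1 in the pools of TM175, TM180 and NTG and from 56.6 to 64.6 in the individual extracts. Probe set 1421027_a_at read 152.8, 119.8 and 85.2 in the same pools and from 35.5 to 45.2 in the individual extracts. In each of these 3 every pool lay above every individual array. The rises were 4.95-fold (95% interval 4.17 to 5.87), 4.48-fold (3.69 to 5.44) and 2.88-fold (2.36 to 3.51). By limma the adjusted p was 6.05e-08, 2.982e-07 and 7.896e-06 in that order. The brightest Mef2c probe set, 1424852_at, read 456.9, 420.1 and 340.5 in the pools and 375.9 to 624.7 in the individual extracts, which overlapped. Its ratio was 0.877-fold (95% interval 0.731 to 1.05; limma adjusted p = 0.272), and the interval does not reach the rises of the other 3. The fifth Mef2c probe set, 1451507_at, was 1.175-fold (limma, adjusted p = 0.0936). The array positions of these probe sets along the transcripts are not used here, so whether they report different Mef2c transcripts was not tested.

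**Figure D4:**
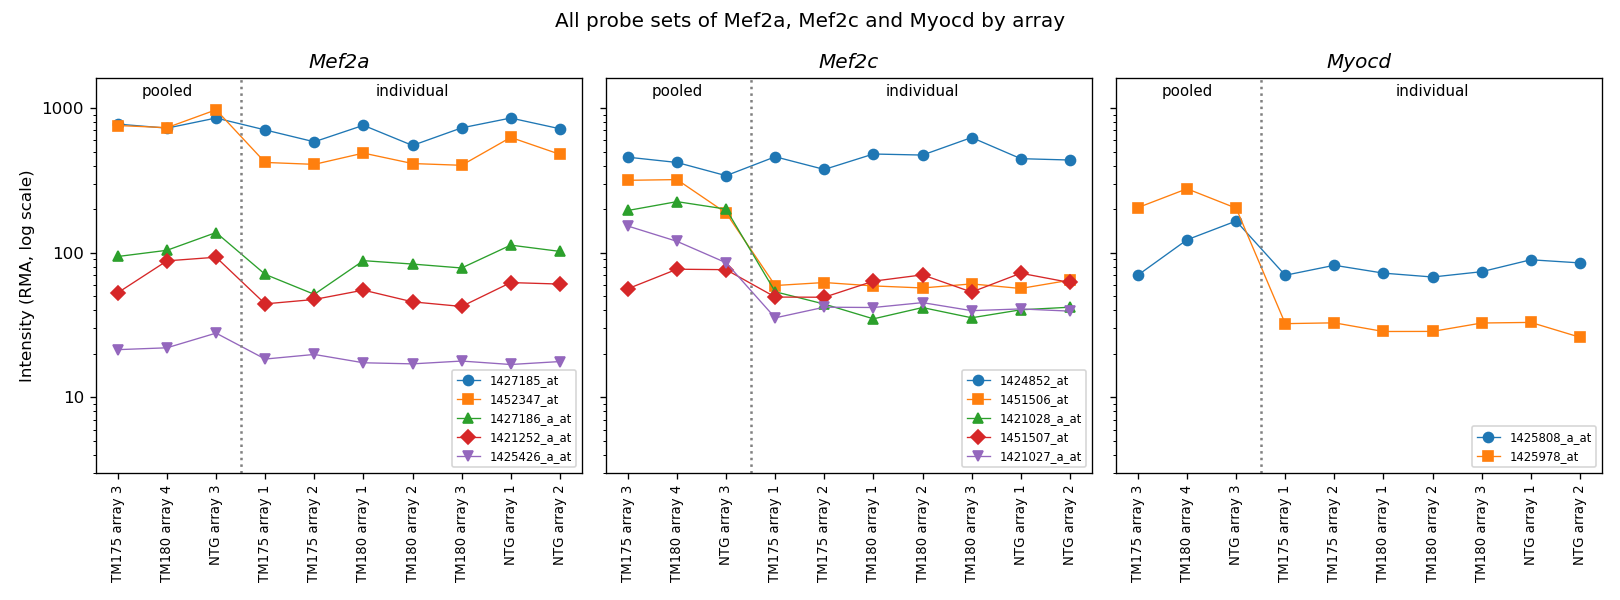
Intensities on a log scale of every probe set of Mef2a, Mef2c and Myocd on the 10 arrays, pools left of the dotted line and individual extracts right of it. Mef2c 1451506_at, 1421028_a_at and 1421027_a_at and Myocd 1425978_at step down from the pools to all individual arrays, whereas Mef2c 1424852_at stays between 340 and 625 and 1451507_at between 49.2 and 76.9, and levels of different probe sets are not comparable with each other.

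Mef2a rose in the pools in 4 of its 5 probe sets, by less. Probe set 1452347_at read 756.3, 730.7 and 971.3 in the pools of TM175, TM180 and NTG and 401.6 to 625.9 in the individual extracts, with no overlap, a rise of 1.76-fold (95% interval 1.52 to 2.04; limma adjusted p = 0.0001472). The others called were 1421252_a_at (1.49-fold), 1427186_a_at (1.35-fold) and 1425426_a_at (1.31-fold), and 1427185_at, the brightest, was 1.12-fold (limma, adjusted p = 0.305). Probe set 1425426_a_at was dim, at 21.4 to 27.8 in the pools and 16.9 to 19.8 in the individual extracts. Whether it lay above background was not tested. Leaving out 1 pool ended the calls on 1421252_a_at (without TM180 array 4, adjusted p = 0.0784), 1427186_a_at (without TM175 array 3, 0.11) and 1425426_a_at (without TM180 array 4, 0.0545, or NTG array 3, 0.0933). Gata6 probe set 1425464_at read 263.7, 280.1 and 292.0 in the pools and 154.9 to 193.0 in the individual extracts, which did not overlap. It rose 1.65-fold (95% interval 1.48 to 1.85; limma adjusted p = 4.638e-05), and 1425463_at rose 1.496-fold (limma, adjusted p = 0.000511). The 2 Tbx5 probe sets rose 1.33-fold and 1.35-fold (limma, adjusted p = 0.00389 and 0.00925), again with no overlap. For Tbx5 1425695_at the pools read 107.4, 106.5 and 102.6 and the individual extracts 73.9 to 86.5. Without NTG array 3 the call on Tbx5 1425694_at was lost (adjusted p = 0.0603).

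Srf probe set 1418255_s_at fell in the pools to 0.793-fold (95% interval 0.697 to 0.903; limma adjusted p = 0.0177). The TM175 pool read 255.3, the TM180 pool 344.3 and the NTG pool 295.4, and the individual extracts read 322.9 to 445.0, so that the TM180 pool lay within the individual range. The call was lost without TM175 array 3 (adjusted p = 0.13) or TM180 array 4 (0.0729). The second Srf probe set, 1418256_at, was 1.05-fold (limma, adjusted p = 0.775). Gata4 had ratios of 0.917-fold (95% interval 0.781 to 1.08) and 0.978-fold (0.739 to 1.30), Nkx2-5 of 1.12-fold (0.86 to 1.46), Mef2d of 1.08-fold (0.931 to 1.25) and 0.914-fold (0.794 to 1.05), and Hand2 of 0.95-fold (0.787 to 1.15). None of these 6 probe sets passed.

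The pools differed from the individual extracts in other ways too. Of 10 fibroblast markers 4 were called higher in the pools (Ddr2, Dcn, Col3a1 and Tcf21) and 0 lower, with a summed intensity of 7412 to 13610 in pools and 5039 to 12590 in individual extracts. Of 9 endothelial markers 2 were called higher (Kdr and Vwf), with sums of 3056 to 4084 in pools and 2881 to 3709 in individual extracts. Of 10 ventricular cardiomyocyte markers 1 was called higher in the pools (Myh6, from a probe set whose reading is uncertain) and 0 lower. Of 10 smooth muscle and pericyte markers, which include genes that myocardin drives, 0 were called in either direction by limma (0 at an unadjusted p under 0.05). Their sums overlapped, at 6674 to 8543 in pools and 5842 to 9838 in individual extracts. From a list of genes not known to be expressed in ventricle, the 16 of settled level had mean intensities from 10.1 to 232 with a median of 44.8. Of the 17 measured 3 were called lower in pools. The table holds no detection calls, so whether the individual readings of Myocd 1425978_at and of Mef2c 1451506_at, 1421028_a_at and 1421027_a_at lay above background was not tested. How the pooled and individual extracts were handled is not given in the sources used here, and the part of handling, cell makeup or sex in these differences was not tested.

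Other genes of the network were read from their brightest probe set. Of 34 further heart transcription factors 0 were called in TM175 by limma (9 at an unadjusted p under 0.05) and 1 in TM180, the homeodomain-only cofactor Hopx, which read 2995, 2312, 2591 and 2660 in TM180 against 4092, 3554 and 4138 in NTG (log2 -0.58, limma adjusted p = 0.0477). In the pools 4 were called higher and 3 lower, among them Tbx20, a T-box repressor of the heart, at 55.6, 79.9 and 93.3 in the pools of TM175, TM180 and NTG and 35.2 to 47.8 in individual extracts (1.77-fold). Isl1, the factor of second heart field progenitors, was among the lower. Of 27 cofactors and repressors 1 was called lower in TM175 and 1 lower in TM180. Smyd1, a muscle histone methyltransferase, read 778, 709 and 287 in TM175 against 988, 1033 and 590 in NTG (log2 -0.64, limma adjusted p = 0.0478). Fhl2, a LIM protein that binds SRF, read 2784, 2198, 2426 and 2402 in TM180 against 3361, 3402 and 3386 in NTG (log2 -0.48, limma adjusted p = 0.028). The Fhl2 arrays did not overlap, and the Smyd1 arrays did, since the NTG pool lay below the individual TM175 arrays. With genotype alone in the limma model these calls were lost (adjusted p = 0.116 for Hopx, 0.47 for Smyd1 and 0.0836 for Fhl2). In the pools 5 cofactors were called higher and 2 lower, with Smyd1 at 0.519-fold.

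Of 32 textbook targets of the members 1 rose and 1 fell in TM175, and 2 rose and 1 fell in TM180. The falls were those of Smyd1 in TM175 and Hopx in TM180 given above, since the lists share these genes. Myh7, the fetal beta-myosin heavy chain, read 6319, 2529 and 5063 in TM175 and 2577, 3922, 3086 and 3813 in TM180, against 342, 350 and 325 in NTG. No transgenic array overlapped with a control array, and Myh7 rose 12.8-fold in TM175 and 9.85-fold in TM180 (limma, adjusted p = 0.000192 and 0.0001572). Nppa, the natriuretic peptide that GATA4 and NKX2-5 activate, rose 11.0-fold in TM180 (limma, adjusted p = 0.0116) and had a log2 difference of 1.62 in TM175, where array 1 read 521 and arrays 2 and 3 read 5478 and 3822 (adjusted p = 0.169). Of the other targets always listed, Nppb differed by 0.28 in TM175 and 1.16 in TM180 on the log2 scale, Acta1 by 0.03 and 1.19, Tnnt2 by -0.08 and -0.19, and Myl2 by -0.03 and -0.01, none called. Atp2a2, the calcium pump, had log2 differences of -0.35 to -0.01 in TM175 and -0.38 to -0.09 in TM180 over 4 probe sets, and Gja1, the gap junction protein, of -0.89 to 0.11 and -0.60 to 0.05 over 6 probe sets, none called. Actc1 differed by 0.01 and -0.02, and Myh6 by -0.17 and -0.14 with 1448826_at, probe sets whose absolute level could not be read from the table. The other Myh6 probe set, 1417729_at, read between 9.16 and 1623 with no order by genotype, and its reading is uncertain. It was called higher in the pools (12.7-fold, limma adjusted p = 0.0185), a ratio that rests on this uncertain reading.

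Of 20 targets of SRF and myocardin of the smooth muscle and immediate early type, a list that includes Srf itself, 0 were called in TM175 by limma (5 at an unadjusted p under 0.05) and 3 rose in TM180. Egr1, an immediate early zinc finger gene, read 211, 274, 230 and 311 in TM180 against 148, 154 and 156 in NTG (1.69-fold). Actg1, cytoplasmic gamma-actin, read 1590, 1960, 1699 and 1668 in TM180 against 1218, 1234 and 1179 in NTG (1.42-fold), and the LIM protein gene Csrp1 rose 1.41-fold (limma, adjusted p = 0.0126, 0.0156 and 0.0454 in that order). With genotype alone the calls on Egr1 and Csrp1 were lost (adjusted p = 0.1 and 0.104). All TM180 arrays of these 3 genes lay above all NTG arrays. The median log2 difference of the list was 0.15 in TM175 and 0.29 in TM180. In the pools 1 of the 20 was called higher and 2 lower, Junb at 2.07-fold and, lower, Srf and Fosb.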

How the data were processed

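The authors deposited 1 table of probe set intensities on a linear scale for 10 Affymetrix arrays of total ventricular RNA, made with RMA per the submitters' processing notes; the RMA version is not given in the sources used here. RMA removes background, sets the arrays to a common distribution by quantiles and joins the probes of a set. In the table, intensities of 1000 or more carried a point before the last 3 digits as a mark. This was undone for 7614 of 226900 values in 1034 probe sets by comparing the arrays of a probe set. For 830 tested probe sets the absolute level could not be settled, which leaves their log2 differences unchanged. No member is among them. Values were then put on the log2 scale.

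Control probe sets (64 of 22690) were not tested. Gene names came from the platform annotation: 20380 of the 22626 tested probe sets carried 1 symbol (20351 matched to RefSeq), 691 several and 1555 none. Limma 3.58.1 in R 4.3.3 (lmFit, eBayes) was fitted to all 10 arrays with genotype and extract type, two-sided, adjusted by Benjamini-Hochberg over 22626 probe sets and called under 0.05. Folds are ratios of geometric means with 95% intervals. Groups came from the labels. The number of arrays limits the precision. The members, the lists of other genes and the term for extract type were chosen with earlier results of these data known, so genotype alone is given beside it.

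All members were named. From each list the called genes were named, up to 6 by smallest p, besides a fixed set of targets, the 3 genes most like a called member, Tpm1, Xist and Eif2s3y. Gene lists were read from the brightest probe set of settled level. Checked on simulated data over 22626 probe sets, the model called 37.3% of changes of 0.5 on the log2 scale in TM175 and 64.2% in TM180. It called 55.2% between the lines and 65.7% between extract types. At a change of 1 it called 100%, 100%, 98.5% and 100% in that order. Unchanged probe sets called numbered 8, 6, 9 and 6. The simulated noise was normal, independent between probe sets and arrays, and of equal size on pools and individual extracts. These rates need not hold for the real arrays, whose counts moved widely when 1 array was left out. Alternatives were genotype alone, individual extracts only, the replicate number as a block, weighting of arrays, quantile normalization done again, arrays centred on their medians, probe sets brighter than the median alone, trend with robust fitting, an offset of 32, unsettled levels left out, only the groups compared, and each array left out. Python 3.11.15 with pandas 2.3.3, numpy 2.4.6 and matplotlib 3.10.9 was used for the repair, counts and plots.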

Additional observations from a re-analysis of the deposited data

Results flagged for a closer look

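Of 48 groups of 4 or 7 member values, 7 had 1 array far from the others by Dixon's test. The test's nominal rate of 5 in 100 is no yardstick here, since the groups share arrays and genes. All 7 were TM180 groups, in which 1 pool stands among individual extracts. The flags on TM180 array 4 fell on probe sets called higher in the pools above, so they repeat the pooling comparison. TM180 array 4, the pooled extract, stood high for Mef2c 1451506_at (319.9, the next array at 60.9), Mef2c 1421028_a_at (225.3, the next at 41.8), Mef2c 1421027_a_at (119.8, the next at 45.2), Myocd 1425978_at (276.5, the next at 32.7) and Myocd 1425808_a_at (122.8, the next at 73.9). Within the TM180 group, array 2, an individual extract, was low for Mef2a 1427185_at (550.7, the next at 725.3, the pool). In the same group array 3, also an individual extract, was low for Nkx2-5 (361.0, the next at 596.5). The NTG and TM175 groups have 3 arrays each and were not tested.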

How the results depend on the processing

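For single members, 484 of 496 alternative values in TM175, 496 of 496 in TM180, 494 of 496 between the lines and 389 of 400 between extract types stayed called or stayed uncalled. An uncalled value that turned its sign but stayed uncalled was counted as kept, and no called value turned its sign. In TM180 and between the lines no member was called to begin with, so these shares speak of uncalled values. The 1 call in TM175, on Mef2a 1427186_a_at, passed in 6 of 11 alternative settings and in 5 of 10 fits that left out 1 array. The member count in TM175, 1, was 0 with genotype alone, with individual extracts only, with the replicate block, with the offset of 32 and with only the groups compared, and 0 to 3 when 1 array was left out. Between TM180 and TM175 array weights gave 2 member calls, Mef2a 1427186_a_at (log2 0.49, adjusted p = 0.0331) and Mef2c 1451507_at (0.39, adjusted p = 0.0344), in place of 0. Between extract types the member count of 14 was 8 among probe sets above the median level, where fewer members were tested, and 10 to 14 when 1 array was left out. Over all probe sets the TM175 count of 195 was 2 with genotype alone, 3 with individual extracts, 423 with array weights, 435 with median centring, 310 above the median level, 17 with the offset, 324 without unsettled levels, 4 with only the groups compared, and 5 (without TM180 array 4) to 1248 (without NTG array 2) with 1 array left out. The TM180 count of 454 was 114 with genotype alone, 44 with individual extracts, 1205 with array weights, 202 with the offset, and 99 to 484 with 1 array left out. Between the lines the 6 calls were 0 with genotype alone, individual extracts or only the groups compared, 1922 with array weights, 11 with renewed quantile normalization, 3 with the offset, and 0 to 885 with 1 array left out. Between extract types the 5013 calls were 1922 above the median level and 2049 to 6791 with 1 array left out. The cause of these shifts was not tested.

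Deviations of same-numbered arrays from their group means correlated at -0.534 to 0.707 across probe sets. Both ends came from number 3, a pool in TM175 and NTG but an individual extract in TM180. For number 2, individual extracts in every genotype, the correlations were 0.485, 0.391 and 0.314. For number 1, also individual extracts, they were 0.168, -0.113 and 0.314. These values cannot decide whether replicate numbers pair the arrays. With the replicate block in place of extract type limma called 1 probe set in TM175, 32 in TM180 and 0 between the lines, with 0 members in each. The number of arrays limits the precision, and whether dim probe sets lay above background was not tested.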
